A study of Homo sapiens with 16 samples.

Results

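The dexamethasone shift between polysome pools C and A was measured on 8 of the 16 arrays of the series. The shift of a gene was the difference between 4 h and 0 h of dexamethasone in pool C minus the same difference in pool A, on the log2 intensity scale, and it was taken from the table of non-normalized intensities. A negative shift means that the 4 h minus 0 h difference was smaller in pool C than in pool A, and a positive shift that it was larger. The cells were MM1.S, an established human multiple myeloma line grown in log phase in medium with serum, and all groups were this 1 line. The 4 groups were pool A at 0 h, pool A at 4 h, pool C at 0 h and pool C at 4 h of treatment with 1 µM dexamethasone, with 2 arrays each. There was no group at 4 h without dexamethasone, so the drug cannot be told apart from time or handling. Columns of the table carry the prefix N or X, and the arrays are called by it. The labels call the pools fractionated polysome RNA and do not say which part of the gradient each pool held. They do not say whether the N and X arrays came from separate cultures, so p-values measure the spread between these arrays, which may be technical. Another pool, B, and total RNA were measured at the same times and entered the estimate of the spread.

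In a sucrose gradient, mRNAs separate by the number of ribosomes they carry, and an mRNA that moves between fractions has changed its ribosome load. Dexamethasone is a synthetic glucocorticoid that binds the glucocorticoid receptor, a transcription factor, and it is used in myeloma because it kills many myeloma cells. Among the genes it induces is DDIT4, whose product holds back the kinase complex mTORC1. mTORC1 in turn controls the translation of mRNAs that begin with a 5′ terminal oligopyrimidine tract (TOP), which encode ribosomal proteins and translation factors. A shift between pools can therefore be asked both of the receptor's targets and of the translation machinery.

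Over the 8 arrays the median intensity ran from 143.1 to 176.6 and 26.1% to 30.8% of probes had a detection p under 0.01. All 10 plasma cell and myeloma markers were detected on all 8 arrays, and 0 of 5 T cell and 0 of 5 myeloid markers on any. Of the epithelial and stromal markers only VIM, which encodes vimentin, was detected, and it was on all 8. Of the B cell markers CD79B was on all 8, while MS4A1 and PAX5 were on none. The 2 arrays of a group correlated at 0.966 in untreated pool A, 0.977 in treated pool A, 0.984 in untreated pool C and 0.978 in treated pool C across genes. The untreated X array of pool A stood apart. On it 18 of 10163 genes lay more than 1.5 log2 units above all other 15 arrays, against 0 genes on each of the others. The claudin CLDN11 was at 9.91 there and at most at 6.44 elsewhere, the tetraspanin CD81 at 9.22 against at most 5.96, the matrix metalloproteinase MMP1 at 8.76 against at most 5.85, and the interferon-induced membrane protein IFITM3 at 9.08 against at most 6.26. The highest shift in the whole table, 2.41, was that of CD81, and it was 0.35 without this array. What set this array apart, RNA of another source included, was not tested. Every shift and every pool A difference below uses it unless said otherwise.

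No gene passed the test of the shift at an adjusted p of 0.05 when arrays were not paired by prefix (limma, 0 of 10163, 0%). With 1 term for the X arrays DKKL1 passed, and with 1 for each time DKKL1, FZD4 and TRIM31 did, all lower. In the deposited values 0 genes passed with 1 such term. The labels name no shared culture, so the values below are from the fit without such terms. An unadjusted p under 0.05 was reached by 585 genes, where 5% of those tested is 508, by 248 with a higher (2.44%) and by 337 with a lower shift (3.32%). Without the untreated X array of pool A the adjusted count was 0 and the unadjusted count 837. Without the untreated N array of pool A, which leaves the X array alone in that group, 8 genes passed, all higher, among them CD81, CLDN11, IFITM3 and MMP1. The shift had a median of -0.04, and 90% of genes lay between -0.74 and 0.68. Its standard error had a median of 0.37. For the 6645 genes detected on all 8 arrays the 95% interval at the median standard error reached 0.73 log2 units to either side, and genes of smaller spread had narrower intervals.

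The split into lower and higher depended on how arrays were scaled. Among genes at an unadjusted p under 0.05, 57.6% were lower with quantile normalization, 81.4% with median scaling and 97.9% in the authors' deposited normalized values. The median over all genes was -0.19 with median scaling and -0.17 in the deposited values. Signs near 0 are therefore read against these medians and not against 0.

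The difference between 4 h and 0 h was more widely spread in pool A than in any other RNA. Its standard deviation over genes was 0.42 in pool A, 0.32 in pool C, 0.32 in pool B and 0.29 in total RNA. The N and X arrays of a group also differed more in pool A, mainly at 0 h. The standard deviation of X minus N over genes was 0.58 in untreated and 0.47 in treated pool A. In pool C it was 0.40 untreated and 0.46 treated. Of the 585 genes, 430 (73.5%) had the larger difference between 4 h and 0 h in pool A, as had 58.5% of all genes. How far the spread between arrays accounts for the larger differences in pool A was not tested. Genes not detected on all 8 arrays made up 344 of the 585. They reached an unadjusted p under 0.05 in 9.78% of 3518 cases, while those detected on all 8 did so in 3.63% of 6645 cases.

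The N arrays alone and the X arrays alone each give a shift from 4 arrays, and these share no array. Across genes, which are not independent replicates, they correlated at a Pearson r of 0.09 and a Spearman rho of 0.12, and 56.0% of genes had the same sign in both. For genes detected on all 8 arrays r was 0.09. CD81 had a shift of 0.56 on the N arrays and 4.25 on the X arrays, and RPL14 of -2.12 and -0.28. TRIM31 had -3.10 and -2.52, and DKKL1 had -2.12 and -1.97.

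**Figure D1:**
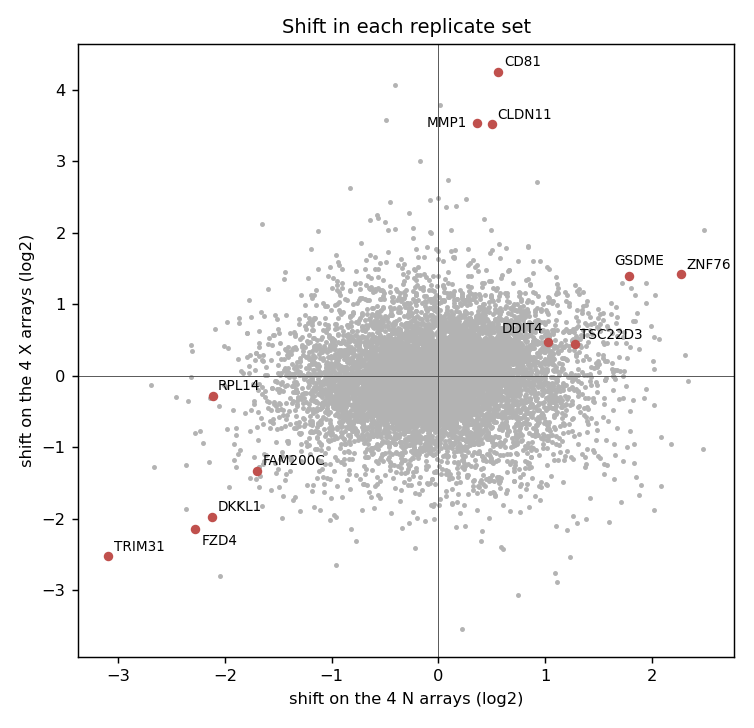
Shift of each gene on the 4 N arrays (x axis, log2) against the 4 X arrays (y axis, log2), 1 point a gene, with named genes in red. The cloud has little tilt (r 0.09), TRIM31, DKKL1 and FZD4 lie low on both axes, and CD81, CLDN11 and MMP1 lie high on the X arrays alone.

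TRIM31, a RING-type ubiquitin ligase of the tripartite motif family (chr6:30102897-30113090, GRCh38.p14), had the smallest p of all genes, with a shift of -2.81 ± 0.41 (SE; unadjusted p = 1.04e-05, adjusted p = 0.106). In pool A the N and X arrays read 4.81 and 5.34 at 0 h, then 8.02 and 8.23 at 4 h. In pool C they read 4.99 and 4.60, then 5.11 and 4.98. Of the 8 arrays only the 2 of treated pool A were above background, and they lay more than 2 log2 units over the other 6. TRIM31 rose in pool A by 3.06 (adjusted p = 0.000394), at least 4.36-fold, where the bound sets the treated mean against the lowest signal above background on each untreated array or the gene's own value, whichever was higher. The difference was 0.25 in pool C, 1.74 in pool B and 0.93 in total RNA.

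The RefSeq promoter window of TRIM31 is shown because the gene had the smallest p of all. The stretch printed holds 250 bases before the annotated start and 30 from it (chr6:30113061-30113340, minus strand, GRCh38.p14). The capitals mark the hexamer TGTTCT, an arm of the glucocorticoid response element, which begins at base 8 when the start is counted as 1.
TRIM31: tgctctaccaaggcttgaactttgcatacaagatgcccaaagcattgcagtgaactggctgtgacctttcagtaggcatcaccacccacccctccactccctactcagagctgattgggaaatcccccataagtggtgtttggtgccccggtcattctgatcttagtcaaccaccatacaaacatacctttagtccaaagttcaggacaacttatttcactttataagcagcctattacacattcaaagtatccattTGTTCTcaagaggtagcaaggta
The hexamer TGTTCT or its reverse complement AGAACA was in a window of 12.6% of 8223 tested genes, where any listed start counted. Windows held 250 bases before the start and 50 from it, and either strand was read. The hexamer was found for 4 of 32 receptor targets with a window. Of the 15 genes with the smallest p in the lower direction, 13 had a window and 3 held the hexamer. The full palindromic element, both hexamers 3 bases apart, was in 0 of the 8223. A match is only a match of letters.

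FZD4, a Wnt receptor whose promoter window held no such hexamer, had a shift of -2.21 ± 0.53 (unadjusted p = 0.000974, adjusted p = 0.412). It read 5.09 and 4.76, then 9.51 and 8.29 in pool A, and 4.54 and 4.78, then 6.68 and 6.18 in pool C. All 4 treated arrays lay above all 4 untreated ones, and the treated arrays of pool A above those of pool C. FZD4 rose at least 7.45-fold in pool A (adjusted p = 0.000394), and its bound in pool C was at least 1.70-fold with an adjusted p of 0.165. FZD4 was not above background in either untreated group, so the folds are bounds and no fold is given for the shift.

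DKKL1, a secreted protein related to the Dickkopf Wnt antagonists and best known from sperm, had a shift of -2.05 ± 0.34 (adjusted p = 0.174). It read 5.14 and 4.81, then 6.46 and 6.02 in pool A at 0 h and 4 h, and 5.73 and 5.34, then 4.93 and 4.58 in pool C. The treated pool A arrays were the only ones of the 8 above background, so its values in pool C have no order. DKKL1 rose in pool A, at least 1.18-fold (adjusted p = 0.0278), and without the untreated X array of pool A it did not pass (adjusted p = 0.0973).

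FAM200C (chr5:160393148-160400054) was detected on all 8 arrays and had a shift of -1.51 ± 0.26 (adjusted p = 0.212). It read 6.24 and 6.31, then 7.47 and 7.21 in pool A, and 6.79 and 6.90, then 6.32 and 6.46 in pool C. The groups did not overlap within either pool, and the direction was opposite in the 2 pools. TINF2, which encodes the shelterin protein TIN2 at telomeres, was also on all 8 arrays and had a shift of -1.55 ± 0.32 (adjusted p = 0.412). It read 7.04 and 6.87, then 8.44 and 8.39 in pool A, and 10.50 and 10.45, then 10.54 and 10.23 in pool C. TINF2 rose in pool A by 1.46 (adjusted p = 0.0125), and the difference was 1.38 without the untreated X array of pool A.

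The 15 genes with the smallest p in the lower direction had shifts from -2.81 to -1.42 and adjusted p from 0.106 to 0.412. Of these 15, 10 were not above background on either untreated pool A array and 3 were detected on all 8 arrays. Pool A alone passed its own test for 12 of them and pool C for 0 (0.876% and 0.0689% of all genes). The pool differences are parts of the shift that chose these 15, so these counts are not read as a result. Of the 12, DKKL1, MN1 and the coenzyme A hydrolase NUDT7 did not pass without the untreated X array of pool A. Their median fitted difference, which for most of them is set against a value not above background, was 1.39 in pool A, -0.29 in pool C, 0.08 in pool B and 0.03 in total RNA. Among them were the vesicular polyamine transporter SLC18B1 (-1.48 ± 0.31), the transcriptional coregulator MN1 (-1.51 ± 0.32), the G protein alpha subunit GNA11 (-1.97 ± 0.43), the ectodysplasin receptor EDA2R (-1.76 ± 0.39) and the homeobox gene PRRX1 (-1.45 ± 0.34). ZNF573, a zinc finger gene, differed from these in that its larger difference was in pool C (-1.35 against 0.25 in pool A). The calcium-binding protein calretinin, CALB2, had 0.76 in pool A and -0.68 in pool C. The amylase gene AMY1B (-1.60 ± 0.36) has near-identical copies that probes may not tell apart, and a second, dimmer probe for it had a shift of 0.43.

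In the higher direction the smallest p belonged to GSDME, which encodes gasdermin E, a protein that forms membrane pores once caspase-3 has cut it. Its shift was 1.59 ± 0.31 (unadjusted p = 0.000195, adjusted p = 0.412). GSDME read 6.89 and 6.26, then 5.35 and 5.38 in pool A, and 6.38 and 6.10, then 6.63 and 6.63 in pool C. It was not above background in treated pool A, where it fell at least 1.60-fold (adjusted p = 0.0278), and its difference in pool C was 0.39. ZNF76, a zinc finger transcription factor, had a shift of 1.85 ± 0.38 (adjusted p = 0.412). It read 7.28 and 7.17, then 5.37 and 6.29 in pool A, and 6.35 and 6.34, then 6.71 and 6.89 in pool C. Its treated pool A arrays differed from each other by almost 1 log2 unit, and both lay below the untreated ones. In pool A ZNF76 had an adjusted p of 0.0329 in limma, and of 0.0689 without the untreated X array.

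The 15 genes with the smallest p in the higher direction had shifts from 1.03 to 1.85 and adjusted p from 0.412 to 0.452. Of these, 6 were not above background in treated pool A, 5 were detected on all 8 arrays, and 9 had the larger difference in pool A. Their median difference was -0.87 in pool A and 0.45 in pool C. The metallothionein MT1E fell at least 1.67-fold in pool A (adjusted p = 0.0205), where it was not above background at 4 h, and had -0.07 in pool C. ORMDL3, a regulator of sphingolipid synthesis in the endoplasmic reticulum, had -1.16 in pool A and 0.33 in pool C. The pseudogene HERC2P2 fell in pool A by 1.58 (adjusted p = 0.00451), and its second probe gave a like shift (1.51 against 1.27). UNC119B, a chaperone of lipid-modified proteins, had -0.47 in pool A and 0.78 in pool C. METTL9, a histidine methyltransferase, and the chaperone BAG6 had shifts of 1.33 and 1.07, and a second probe had -0.81 for METTL9 and -0.32 for BAG6, so these rest on the brighter probe. The calcium channel subunit ORAI3 (1.52 ± 0.40) and FBXO10, an F-box protein (1.33 ± 0.34), were among the rest. All 30 of these genes were chosen for their p, so that their values are a description.

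**Figure D2:**
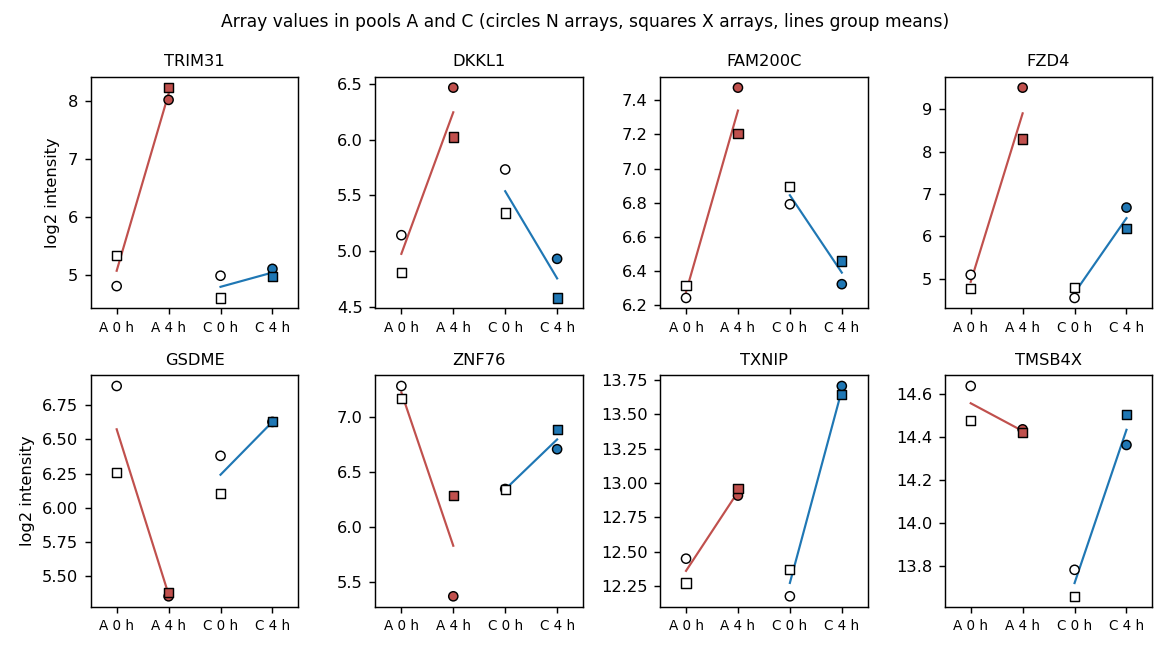
Log2 intensity (y axis) of 8 genes on each of the 8 arrays, with open symbols for 0 h, filled symbols for 4 h, circles for N arrays, squares for X arrays and lines between group means; the y axes differ between panels and do not start at 0. TRIM31, DKKL1, FAM200C and FZD4 are higher at 4 h in pool A, GSDME and ZNF76 are lower there, and TXNIP and TMSB4X are higher at 4 h in pool C.

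Genes that passed in a single pool did not pass the test of the difference between pools. In pool A 89 genes passed (0.876%), 64 higher and 25 lower, and in pool C 7 genes passed (0.0689%), all higher. The shift passed for 0 of the 89 and 0 of the 7. The unadjusted 95% interval of the shift left out 0 for 58 of the 89 and for 3 of the 7, beside 5.76% of all genes. The pool difference that chose these genes is a part of the shift, so these counts are not evidence of a shift. In pool C the difference had the same sign as in pool A for 63 of the 89, and for all 7 the sign was the same in pool A. The share of all genes with the same sign is not given here, so these counts are not read as agreement between the pools. The 64 genes that rose in pool A had a median of 1.38 there, 0.45 in pool C, 0.65 in pool B and 0.55 in total RNA. The 25 that fell in pool A had a median of -1.21 there and -0.20 in pool C. Pool A chose these genes, so its value cannot be weighed against the others. Without the untreated X arrays of pools A and C the count was 72 in pool A and 2 in pool C. The 2 were HMGB3 and HMCES, so the pool C results for H1-10, TXNIP, AP3S1, LAPTM5 and MIR657 given below did not pass without these arrays (adjusted p from 0.0518 to 0.224).

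**Figure D3:**
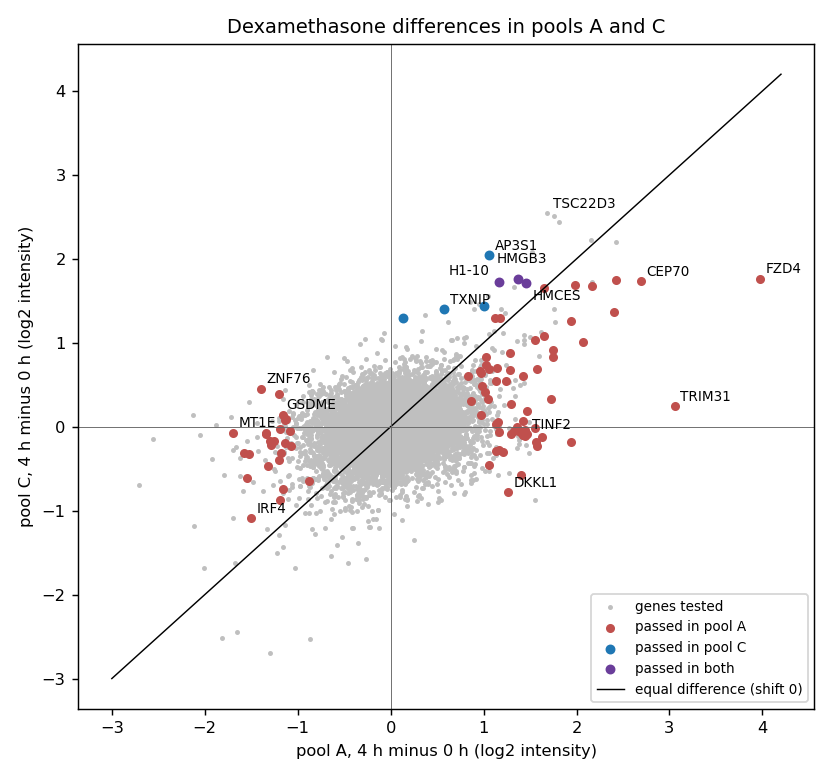
Difference between 4 h and 0 h in pool A (x axis, log2) against pool C (y axis, log2), 1 point a gene, with the genes that passed in pool A in red, in pool C in blue and in both in purple. Points below the diagonal have a negative shift: FZD4 and TRIM31 lie farthest to the right, and HMGB3, H1-10 and HMCES lie near the diagonal.

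The 3 genes that passed in both pools were the chromatin protein HMGB3, the linker histone H1-10 and HMCES, a protein that shields abasic sites in DNA. H1-10 had the largest shift of them. It read 9.64 and 9.46, then 10.82 and 10.60 in pool A, and 10.43 and 10.26, then 12.07 and 12.08 in pool C. H1-10 rose by 1.16 in pool A (adjusted p = 0.0149) and by 1.73 in pool C (adjusted p = 0.00248), and the shift was 0.56 ± 0.26 (adjusted p = 0.861). Its differences were 1.08 in pool A and 1.64 in pool C when the untreated X arrays of both pools were left out. HMGB3 rose by 1.37 in pool A and by 1.76 in pool C, with a shift of 0.39 ± 0.28 and a 95% interval from -0.21 to 0.98. HMCES rose by 1.45 and 1.71, with a shift of 0.25 ± 0.29 and an interval from -0.36 to 0.87. A shift of 1 log2 unit lay outside these 2 intervals.

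TXNIP, an inhibitor of thioredoxin that also limits glucose uptake, passed in pool C and not in pool A. It read 12.45 and 12.27, then 12.91 and 12.96 in pool A, and 12.18 and 12.37, then 13.71 and 13.65 in pool C. The untreated values of the 2 pools overlapped and the treated values of pool C lay above all others. TXNIP rose by 1.40 in pool C (adjusted p = 0.0133), against 0.58 in pool A (adjusted p = 0.217), 0.90 in pool B and 0.92 in total RNA. The shift was 0.83 ± 0.27 (unadjusted p = 0.00925, adjusted p = 0.610), it was 0.92 without the untreated X array of pool A, and in the authors' deposited values it was -0.11. AP3S1, a subunit of the AP-3 vesicle adaptor, rose by 2.04 in pool C and had 1.06 in pool A, with a shift of 0.98 ± 0.44 (adjusted p = 0.856). LAPTM5, a lysosomal membrane protein of blood cells, rose by 1.44 in pool C and had 1.01 in pool A. Its shift of 0.43 ± 0.33 was -0.15 with median scaling and -0.22 in the deposited values. The probe annotated as the microRNA gene MIR657 rose in pool C, where it was above background at 4 h alone, at least 1.38-fold.

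CEP70, a centrosomal protein, was on all 8 arrays and had 2.69 in pool A (adjusted p = 0.00371), 1.73 in pool C and 2.30 in total RNA. Its treated pool A arrays read 10.11 and 8.99 and those of pool C 9.36 and 9.07, which overlap, and the shift was -0.96 ± 0.49 (adjusted p = 0.893). The transcription factor IRF4, an essential gene in myeloma, fell by 1.51 in pool A (adjusted p = 0.0253), and its value was -1.09 in pool C (adjusted p = 0.267). The shift of IRF4 was 0.42 ± 0.38, with an interval from -0.40 to 1.23, and -0.11 in the deposited values.

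Of 44 listed glucocorticoid receptor targets 35 were tested, and 0 passed. Several were put on the list because of earlier results of these data, so the list is not independent evidence. Their median difference was 0.61 in pool A, 0.60 in pool C, 0.65 in pool B and 0.81 in total RNA, beside medians within 0.04 of 0 for all genes. The median shift was 0.05, against -0.04 for all genes, with 18 members above 0 and 17 below. The sign of this median depended on the arrays and the scaling: it was -0.15, with 13 members above 0, without the untreated X array of pool A, -0.31 without the untreated N array of pool C, and below 0 in 11 of 21 alternatives. At an unadjusted p under 0.05 there were 2 higher members, TXNIP and the corepressor TLE1 (0.96 ± 0.42), and 1 lower, FZD4. TLE1 and TXNIP were above 0 in all 16 ways of taking 1 array from each of the 4 groups (6.87% of all genes were), and FZD4 and the cell cycle regulator RGCC were below 0 in all 16 (9.33% of all genes were).

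The shifts of the best known targets were imprecise in this fit, which does not pair arrays by prefix, because their untreated arrays disagreed. TSC22D3, the glucocorticoid-induced leucine zipper, read 10.15 and 11.74, then 12.52 and 12.74 in pool A, and 10.42 and 12.80, then 14.07 and 14.24 in pool C. The untreated X array was higher than the untreated N array in both pools. Such an offset cancels in the shift as far as both pools share it, but this fit counts it as spread. Leaving out the untreated X array of pool A alone removes a single side of the offset. The shift of TSC22D3 was 0.86 ± 1.15 with an interval from -1.63 to 3.35, 0.07 without the untreated X array of pool A, and 1.26 without the untreated X arrays of both pools. DDIT4 read 10.07 and 12.71, then 13.01 and 13.30 in pool A, and 10.19 and 13.10, then 14.16 and 14.16 in pool C. Its shift was 0.75 ± 1.56, -0.57 without the untreated X array of pool A and 0.89 without both. FKBP5, a co-chaperone of the receptor, had 0.56 ± 0.77. The receptor gene itself, NR3C1, was above background on 1 of 2 arrays at each time in pool A and on all 4 arrays of pool C, and its shift was 0.39 ± 0.61.

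Ribosomal protein mRNAs of the large subunit were mostly below 0, without a member that passed. Of 43 tested members 36 were below 0 and 7 above, beside 5514 below 0 of all 10163 genes, with a median of -0.18 against -0.04 for all genes. Their median difference was 0.10 in pool A and -0.11 in pool C. At an unadjusted p under 0.05 there were 3 lower members and 0 higher (3.32% and 2.44% of all genes). In all 16 combinations 11 members were below 0 and 2 above (9.33% and 6.87% of all genes). The list's median was -0.31 on the N arrays and -0.14 on the X arrays. It was -0.26, with 34 members below 0, when the untreated X array of pool A was left out. With median scaling it was -0.03, above the median of all genes at that scaling (-0.19), so that the list's place relative to all genes turned.

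RPL26, which sits at the polypeptide exit side of the large subunit, read 14.07 and 14.28, then 14.37 and 14.17 in pool A, and 13.77 and 13.39, then 12.87 and 12.61 in pool C. The pool A groups overlapped, and in pool C the treated values of RPL26 were both below the untreated ones. The shift of RPL26 was -0.94 ± 0.28 (unadjusted p = 0.00496, adjusted p = 0.519). RPL21 read 13.71 and 13.84, then 14.25 and 13.91 in pool A, and 13.74 and 13.04, then 12.62 and 12.53 in pool C. Its shift was -1.12 ± 0.36 (adjusted p = 0.554). RPL14 read 11.90 and 12.76, then 13.08 and 12.89 in pool A, and 11.51 and 10.51, then 10.58 and 10.36 in pool C. Its untreated arrays differed by 0.86 in pool A, and the shift was -1.20 ± 0.47 (adjusted p = 0.822). RPL11 (0.32 ± 0.25) and RPL37A (0.28 ± 0.25) were at the other end of the list.

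Of 26 small subunit members tested, 17 were below 0 and 9 above, with a median of -0.12, and 0 were at an unadjusted p under 0.05 in either direction. RPS2 had the lowest shift (-0.68 ± 0.33) and RPS24 the highest (0.40 ± 0.25). A second, dimmer probe for RPS24, detected on all 8 arrays, had -0.29. RPS6, the substrate of the S6 kinases downstream of mTORC1, had 0.03 ± 0.34. With median scaling the list's median was 0.14.

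Translation factors and other TOP mRNAs had 19 of 28 members below 0 and a median of -0.14. EIF2S3, the gamma subunit of initiation factor eIF2, was the only member at an unadjusted p under 0.05 in the limma fit (-0.70 ± 0.25). The elongation factor EEF1A1, at 14.53 to 14.75 on the 8 arrays, had -0.10 ± 0.25 with an interval from -0.64 to 0.43. Other probes for EEF1A1 had 0.07 and -0.07 at like levels, and -0.82 at a mean level of 8.92. Elongation factor EEF2 had -0.21 ± 0.43 and the poly(A)-binding protein PABPC1 0.09 ± 0.37. Without the untreated X array of pool A, 23 of the 28 were below 0.

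Start sites of these mRNAs are shown because TOP mRNAs are defined by the letters there. Each RefSeq window (GRCh38.p14) holds 10 bases before the annotated start and 30 from it, and the capitals mark a run that begins with C at the start base and goes on with at least 4 C or T. RPL14 (chr3:40457329-40457368), RPL21 (chr13:27251548-27251587) and RPL26 (chr17:8383164-8383203) had the lowest shifts of the large subunit list, RPL11 (chr1:23691796-23691835, the second of 2 listed starts) and RPS24 (chr10:78033853-78033892) the highest of their lists, and EEF1A1 (chr6:73521003-73521042) was the most abundant factor. RPL26 and EEF1A1 are on the minus strand and the others on the plus strand.
RPL14: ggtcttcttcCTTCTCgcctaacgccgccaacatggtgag
RPL21: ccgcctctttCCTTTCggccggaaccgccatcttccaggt
RPL26: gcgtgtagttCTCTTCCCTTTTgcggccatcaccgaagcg
RPL11: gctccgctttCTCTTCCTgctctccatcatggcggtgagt
RPS24: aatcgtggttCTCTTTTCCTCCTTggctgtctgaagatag
EEF1A1: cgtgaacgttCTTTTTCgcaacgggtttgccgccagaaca
The first listed start of RPL11 has no such run. The 6 starts shown all begin with one, and their shifts ran from -1.20 for RPL14 to 0.40 for RPS24. The value of RPS24 is that of its brighter probe, and its other probe had -0.29. The longest run of them, 14 bases, was that of RPS24, and RPL14 and RPL21 had 6 bases each.

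Such a start was listed for 26 of 36 large subunit genes with a window, 17 of 23 small subunit genes and 13 of 20 translation factor genes, and for 630 of 8223 tested genes (7.66%), where any listed start counted. Over tested genes the median shift was -0.10 for the 630 and -0.04 for the other 7593, and 60.5% against 54.3% were below 0. Among large subunit genes the median was -0.21 with such a start and -0.12 without it. Among small subunit genes it was -0.05 with it and -0.19 without it, so the order turned between the lists.

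Genes of cap binding and mTORC1 signalling had a median of 0.10, with 23 of 35 above 0. RPTOR, the raptor subunit of mTORC1, was the only one at an unadjusted p under 0.05 (0.70 ± 0.32). The cap-binding protein EIF4E had 0.42 ± 0.36 and was not above background in treated pool A, and its repressor EIF4EBP1 had 0.26 ± 0.45. TSC1, an mTORC1 inhibitor, had the lowest value (-1.02 ± 0.49), but a second, dimmer probe for it had 0.11. Aminoacyl-tRNA synthetases, which charge tRNAs, had 23 of 33 members above 0 and a median of 0.14, and 0 were at an unadjusted p under 0.05. With the deposited values both medians were below 0 (-0.19 and -0.18), near the median of all genes there.

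Replication-dependent histone genes had the lowest median of the 24 lists, -0.30, with 14 of 19 tested members below 0. Only 7 of the 19 were detected on all 8 arrays. How the labelling step treats histone mRNAs was not tested. H2BC5 had -1.22 ± 0.42 and a second probe for it 1.17. The list's median was 0.01 on the N arrays and -0.48 on the X arrays, and without the treated X array of pool A it was -0.04 with 10 of 19 members below 0.

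Sterol synthesis and uptake had 0.16 (13 of 21 above 0), with SREBF2, the master transcription factor of the pathway, at 1.19 ± 0.51. The pool A difference of SREBF2 was -0.86, and -0.36 without the untreated X array of pool A. Over the alternatives tried, its shift ran from 0.25 to 1.69. Actin and cytoskeleton mRNAs had 0.13. In that list TMSB4X, which encodes the actin-binding peptide thymosin beta 4, read 14.63 and 14.47, then 14.43 and 14.42 in pool A, and 13.78 and 13.66, then 14.36 and 14.50 in pool C. Its groups did not overlap in pool C, and its shift was 0.84 ± 0.24 (unadjusted p = 0.00342, adjusted p = 0.477). Mitotic genes had 0.03, with PLK1, the polo-like kinase, lowest at -1.05 ± 0.29 (0.79 in pool A and -0.26 in pool C). ER genes had -0.03, between SPCS3, a signal peptidase subunit, at -0.96 ± 0.39 and ERN1, the unfolded protein sensor IRE1, at 1.17 ± 0.36. A second, dimmer probe for SPCS3 had -0.13.

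The unfolded protein response factor XBP1 had 0.13 ± 0.28 and ATF4 -0.05 ± 0.41. MYC had 0.02 ± 0.29, with an interval from -0.60 to 0.63, and the survival protein MCL1 0.22 ± 0.32. The BCL2 family list had a median of 0.14, with 14 of 21 members above 0. In the BCL2 family and among immediate early genes the highest shifts were those of BNIP3 (1.24 ± 0.88) and IER3 (0.76 ± 0.68). Both were among the 18 genes high on the untreated X array of pool A, and without that array they had -0.19 and -0.27. The chemokine gene CCL3 had -1.65 in pool A and -2.44 in pool C, with a shift of -0.80 ± 0.87.

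The remaining lists had medians from -0.07 to 0.11, beside -0.04 for all genes. The proteasome had -0.06 with 24 of 37 members below 0, and its regulatory subunits PSMD1 and PSMD2 had 0.80 ± 0.36 and 0.75 ± 0.34. Mitochondrial ribosomal proteins had 0.03 (40 of 75 above 0), with MRPS25 lowest at -0.86 ± 0.37, and the respiratory chain -0.01 (33 of 69 above 0). Nucleolar ribosome assembly genes had 0.03 (22 of 38 above 0), with the nucleolar phosphoprotein NOLC1 highest at 1.04 ± 0.48. Genes of mRNA decay had -0.03 (20 of 44 above 0), between CNOT6L, a deadenylase subunit, at -0.77 ± 0.28 and LSM6, of the LSM ring that binds mRNA 3′ ends, at 1.07 ± 0.36. DNA replication had 0.11 (23 of 39 above 0), cytosolic chaperones 0.06 (15 of 28), snoRNA hosts 0.03 (12 of 22), mRNAs with upstream reading frames and ATF4 targets 0.01 (14 of 27) and plasma cell regulators -0.00 (14 of 29). NF-kB and chemokine genes had -0.06 (9 of 23 above 0), between CCL3L3, a near-identical copy of CCL3, at -1.40 ± 0.80 and CXCL8 at 1.27 ± 0.58, and immediate early genes -0.07 (11 of 24), with the ERK inhibitor SPRY2 lowest at -1.11 ± 0.50. In none of the 24 lists did a member pass the adjusted threshold.

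**Figure D4:**
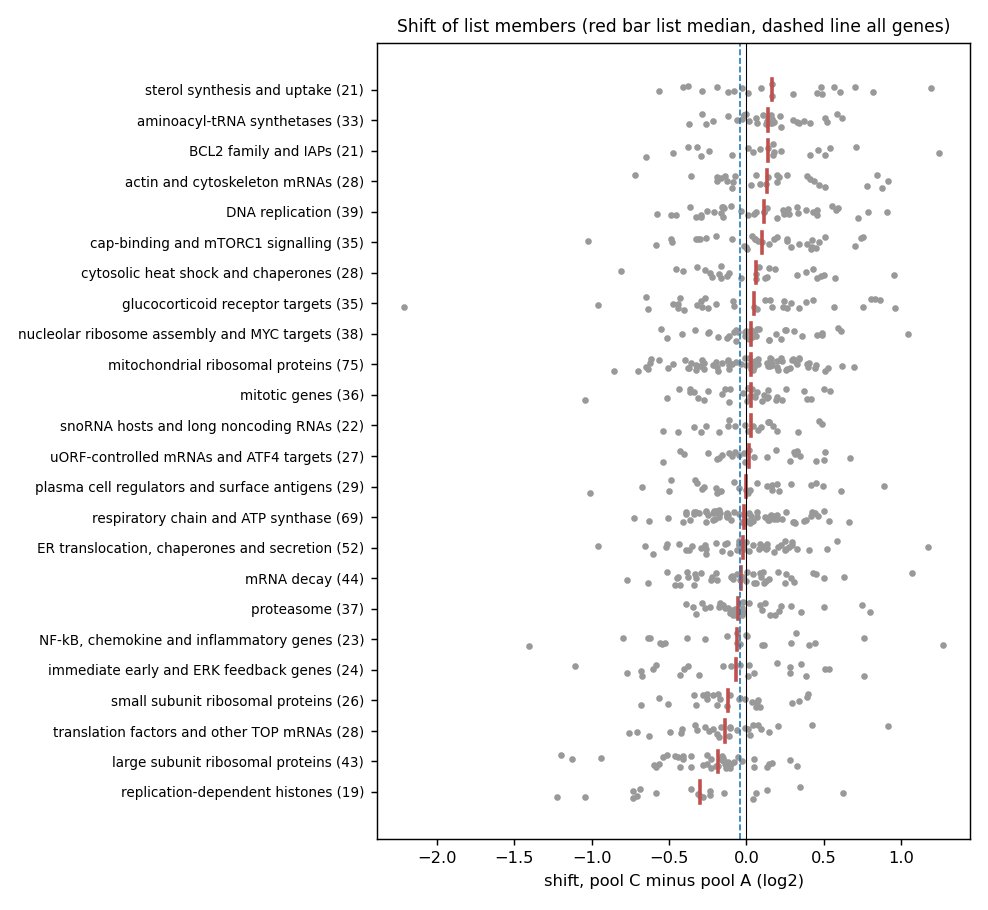
Shift (x axis, log2) of the tested members of 24 gene lists, 1 point a member, with the number tested in parentheses, a red bar for the list's median and a dashed line for the median of all genes (-0.04). Large subunit ribosomal proteins (-0.18) and replication-dependent histones (-0.30) have the lowest medians, and sterol synthesis (0.16) the highest.

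Several classes of small noncoding RNA had mostly positive shifts. They were looked at after their values were seen and were grouped by RefSeq gene type. Their values are probe signals, and how the labelling step treats such RNAs was not tested. The 2 vault RNAs are components of the vault particle. VTRNA2-1 read 9.80 and 9.47, then 8.41 and 8.62 in pool A, and 4.73 to 4.93 on the 4 arrays of pool C, where it was not above background. It fell in pool A by 1.12 (adjusted p = 0.0402), and its shift was 1.21 ± 0.32 (adjusted p = 0.452). VTRNA1-1 read 7.94 and 7.92, then 7.003 and 6.68 in pool A, fell there by 1.09 (adjusted p = 0.0349), and had a shift of 1.03 ± 0.30 (adjusted p = 0.509). Without the untreated X array of pool A the pool A adjusted p was 0.0829 for VTRNA1-1, which then did not pass, and 0.0494 for VTRNA2-1. VTRNA2-1 did not pass without the untreated X arrays of both pools (adjusted p = 0.0727).

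All 4 Y RNAs, which bind the Ro60 protein, were detected on both untreated arrays of pool A and on none of the 4 arrays of pool C. Their shifts were all above 0 (45.7% of all genes were) with a median of 0.60, and RNY4 fell in pool A by 1.19 (adjusted p = 0.0486). Since pool C held no signal above background for vault and Y RNAs, their shift is in effect the pool A difference with the sign turned. In total RNA the medians of vault and Y RNAs were -0.21 and -0.06.

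Spliceosomal and other small nuclear RNAs had 12 of 12 shifts above 0, with a median of 0.58, and 12 of 12 pool A differences below 0. Of all genes 45.7% had a shift above 0, and their median pool A difference was 0.04. At an unadjusted p under 0.05, 1 of these small nuclear RNAs was higher and 0 lower (2.44% and 3.32% of all genes). In total RNA 2 of the 12 differences were below 0. Of the 12, 4 were detected on both untreated pool C arrays and 5 on no pool C array. For those 5 the shift is in effect the pool A difference with the sign turned. With median scaling and in the deposited values 10 of 12 shifts were above 0. RNU6ATAC, of the minor spliceosome, read 7.80 and 7.71, then 6.94 and 6.64 in pool A, and had a shift of 1.06 ± 0.36 (adjusted p = 0.638). Without the untreated X array of pool A 9 of 12 were above 0 with a median of 0.26, and without the treated N array of pool A 9 of 12 with a median of 0.15.

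Small nucleolar RNAs, which guide the modification of ribosomal RNA, had 79 of 115 shifts above 0 (45.7% of all genes) and a median of 0.23. At an unadjusted p under 0.05 there were 13 higher and 0 lower members, beside 2.44% and 3.32% of all genes, and without the treated N array of pool A 12 and 2 with a median of 0.10. Of the 115, 82 were detected on no pool C array. With median scaling their median was -0.02 and in the deposited values -0.05, both above the median of all genes at that scaling. Of the 3 probes for ribosomal RNA, RNA18SN5 read 9.65 and 7.29 on the N and X arrays of treated pool C, and RNA28SN5 read 10.55 and 7.42. Their shifts were -1.31 ± 0.84 and -1.66 ± 1.12. The median of the 3 was -1.31, and -0.10 without the treated X array of pool C.

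**Figure D5:**
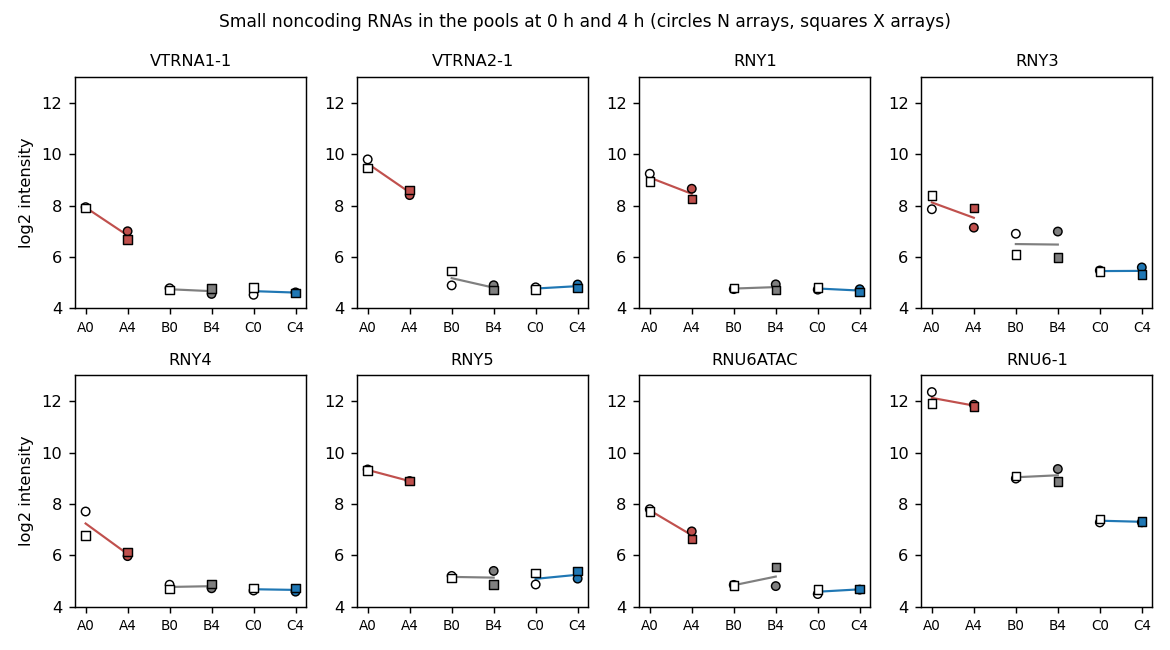
Log2 intensity (y axis, from 4 to 13) of vault RNAs, Y RNAs, RNU6ATAC and RNU6-1 in pools A, B and C at 0 h (open) and 4 h (filled), with circles for N arrays, squares for X arrays and lines between group means. Signal is highest in pool A, where both vault RNAs and RNU6ATAC are lower on both arrays at 4 h, and the lines of pool C are near level.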

How the data were processed

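The samples were hybridised to Illumina bead arrays. Per the labels' protocols, RNA was converted to cDNA and biotin-labelled with an Ambion Illumina amplification kit. The deposited table holds non-normalized probe intensities and, per the file headers, a detection p-value for each. For scanner, reading software and background step the sources used here give nothing. The authors' deposited value table holds log2 values normalized in a way not stated, and it was used as an alternative. Its columns matched the intensities of their own group in 16 of 16 cases (lowest r 0.996). N columns matched replicate 1 and X columns replicate 2.

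Intensities were background-corrected by normexp on detection p-values (offset 16), put on the log2 scale and quantile-normalized over 16 arrays with limma 3.58.1 in R 4.3.3. Of 47323 probes, 17269 had a detection p under 0.01 on at least 2 arrays. Of these, 13289 carried 1 gene symbol of the platform annotation, and the probe with the highest mean was taken for each of 10163 genes. Group means of all 8 groups were fitted, and the contrast was tested with eBayes, two-sided, with Benjamini-Hochberg adjustment over all genes at a threshold of 0.05. The number of arrays limits the precision. The 3980 kept probes without a single symbol gave 0 calls at the adjusted threshold and 264 at an unadjusted p under 0.05.

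Genes were named by the 15 smallest p-values in each direction among genes detected on both arrays of at least 1 of the 4 groups, by a list of eligible genes, and by the highest, lowest and most abundant members of 24 gene lists. LAPTM5 as a gene that passed in pool C, the genes high on the untreated X array, the noncoding RNAs, RPL21, RPL26, RPL37A, EIF2S3, RPTOR, TLE1, RGCC and CCL3 were, where the rule does not name them, named after their values were seen. The comparison and the lists were chosen with earlier results of these data known. Promoter windows are from RefSeq (8223 of 10163 genes matched by symbol).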

Additional observations from a re-analysis of the deposited data

How the results depend on the processing

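Under 21 alternatives the count of genes that passed the shift test, reported as 0, was 1 with a normexp offset of 50 (TRIM31), 1 without the untreated X arrays of pools A and C (GNA11), and 0 to 8 when a single array was left out. The 8 appeared without the untreated N array of pool A, were all higher, and included CD81, CLDN11, IFITM3 and MMP1, which are high on the remaining X array. It was 0 under the others, apart from the replicate block. The unadjusted count ran from 309 (genes on all 8 arrays, 6661 tested) to 1399 (replicate block in the deposited values). No filter on detection gave 1162 of 20043 genes. The shift of TRIM31 ran from -3.27 to -1.07.

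Labels number replicates 1 and 2 in every group without saying what a number shares. With a replicate block for prefix X 1 gene passed (DKKL1, adjusted p = 0.0107), with a block within each time 3 passed (DKKL1, FZD4 and TRIM31), all lower, and with the block in the deposited values 0. X minus N deviations correlated across genes at 0.34 between the times in pool A, 0.35 between the times in pool C, 0.31 between the untreated and -0.08 between the treated arrays of the 2 pools, and at 0.12 and 0.22 for the other two pairs. As 1 of these 6 was not above 0.1 and the labels name no shared culture, the block was not used for the main values.

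Scaling moved all genes: their median was -0.04 as reported, -0.19 with median scaling and -0.17 in the deposited values, so the following signs are to be read against these medians. In the deposited values, with and without the replicate block, TXNIP was at -0.11, IRF4 at -0.11 and LAPTM5 at -0.22, and with median scaling LAPTM5 was at -0.15. List medians in the deposited values were -0.19 (cap binding and mTORC1), -0.17 (sterol), -0.21 (DNA replication), -0.11 (BCL2 family), -0.18 (aminoacyl-tRNA synthetases) and -0.13 (actin), with the same values in the block fit. With median scaling they were 0.14 (small subunit), -0.035 (cap binding), -0.056 (sterol), -0.096 (DNA replication), -0.074 (BCL2 family) and -0.084 (synthetases). With single arrays left out, medians ran from -0.037 to 0.24 (cap binding), -0.11 to 0.13 (BCL2 family), -0.089 to 0.31 (DNA replication) and -0.035 to 0.23 (synthetases). The lowest values were without untreated N of pool A for the first and second of these lists, without untreated N of pool C for DNA replication and without treated X of pool C for the synthetases, which had -0.0014 without untreated N of pool C. DNA replication had -0.066 without treated X of pool C. Small nucleolar RNAs had -0.019 with median scaling and -0.050 in the deposited values, with or without the block. The cause of the turns without single arrays was not tested.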
